A study of Mus musculus with 16 samples.

Results

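The livers of 1-month-old mice collected 2 days after an injection of diethylnitrosamine (DEN) were compared with livers of untreated mice of the same age, gene by gene. The comparison holds 5 of the 16 libraries of the study, 3 of day 2 and 2 of controls, chosen by their labels of age and day alone. All mice were wild type C57BL/6 males. The labels give the age of the younger mice as 3-4 weeks in one field and as 1 month in another. DEN was given once, intraperitoneally, at 25 mg/kg according to the labels, while the methods of the study print the dose with another mass unit. The controls carry the time point 0, and no vehicle injection is stated for them. Each library was made from a pool of equal amounts of whole-liver RNA from 3 mice, so 9 treated and 6 untreated mice stand behind the comparison. A p-value here measures the spread between pools, and in whole tissue fewer cells of a type and less RNA per cell cannot be told apart.

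DEN is a nitrosamine that becomes reactive only after oxidation by cytochrome P450 enzymes, above all CYP2E1, which is found in the hepatocytes around the central vein. The product alkylates DNA bases, and the lesions are removed by the direct reversal enzyme MGMT and by excision repair. DNA damage stabilises p53, a transcription factor whose targets include its own inhibitor Mdm2, cell cycle inhibitors, death receptors and repair genes. Young livers still hold dividing hepatocytes, in which such lesions can be copied into mutations.

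The libraries held 21592732 to 31785053 counts each, and their log2 levels correlated with r from 0.965 to 0.988 over all pairs of the 5. They stood in opposite phases of the circadian clock. A clock score was formed by subtracting the mean log2 level of 6 Arntl-phase genes from that of 12 Dbp-phase genes. It was 3.13 in control library 1 and -1.38 in control library 2. In the day 2 libraries 1, 2 and 3 it was 3.64, 2.95 and -2.16. Control library 2 and day 2 library 3 thus stood together and apart from the other 3, and the mitochondrial share of counts was also lower in them, at 2.39% and 3.52%, than in the others, at 4.3% to 4.84%. Levels are therefore given for each library as CPM, the count scaled to the size of the library with a TMM factor computed over all 16 libraries. Key counts are repeated without control library 2 and day 2 library 3. Of 14 hepatocyte markers 12 were measured, with a summed level of 72540 and 91570 CPM in the controls and 70170, 65350 and 92550 CPM at day 2. Alb is listed at 0 in every library, so the most abundant hepatocyte gene could not be used as a check of the tissue.

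At day 2, 2 genes rose and 1 fell of 15684 tested, by edgeR's quasi-likelihood test at a Benjamini-Hochberg adjusted p under 0.1. These are 0.0128% and 0.00638% of the genes. DESeq2 on the same counts and groups called 43 genes higher and 48 lower at the same threshold, 0.274% and 0.306%, and the 3 genes of edgeR were among them. An unadjusted edgeR p under 0.05 was found for 499 genes that were higher (3.18%) and 624 that were lower (3.98%). In 1249 genes (7.96%) all 3 day 2 libraries lay above both controls, and in 1375 (8.77%) all 3 lay below. The median log2 fold change over all genes was -0.01. Rose and fell are written below only of the 3 genes that passed with edgeR, and calls of DESeq2 are named as such.

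Ddit4l rose 4.92-fold. It encodes REDD2, an inhibitor of mTORC1 signalling, and lies on chromosome 3 at 137621612 to 137628333 (GRCm38, as for all positions of genes here). Its level was 0.805 and 1.26 CPM in control libraries 1 and 2 and 4.42, 7.11 and 3.79 CPM in day 2 libraries 1, 2 and 3. All 3 day 2 libraries lay above both controls, with library 2 the highest and library 3 the lowest. The log2 fold change was 2.30 (SE 0.32, edgeR adjusted p = 0.0352). At day 6, set against the same controls, its level was 3.55, 2.18 and 3.73 CPM. Of the other 15 measured members of the list of mTOR inhibitors and REDD family genes, none passed with edgeR or was called by DESeq2, and 1, Sesn2, had an unadjusted p under 0.05.

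Atp8b5 rose 5.74-fold. It encodes a P4-ATPase, one of the flippases that move phospholipids to the inner leaflet of membranes, and lies on chromosome 4 at 43267159 to 43373833. Its level was 0.92 and 1.05 CPM in the controls and 6.07, 7.66 and 3.31 CPM at day 2. The groups did not overlap, and again day 2 library 2 was highest and library 3 lowest. The log2 fold change was 2.52 (SE 0.35, edgeR adjusted p = 0.0352). Of the 14 P4-ATPase genes measured Atp8b5 alone passed in either direction, and 2 others, Atp10d and Atp11a, had lower levels at an unadjusted p of 0.00268 and 0.0465. Within 100 kb of Atp8b5 4 other genes were tested, and their log2 fold changes lay between -0.53 and 0.05.

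Serpina4-ps1 fell 6.76-fold. It is annotated as an unprocessed pseudogene in the cluster of serpin genes on chromosome 12, at 104080649 to 104086724. Its level was 168 and 373 CPM in the controls and 56.3, 30.9 and 32.9 CPM at day 2. Every day 2 library lay at or below a level of 56.3 CPM and every control above it. The log2 fold change was -2.76 (SE 0.43, edgeR adjusted p = 0.0844). The call was lost with robust dispersion (edgeR adjusted p = 0.137), with the replicate block (0.356), with the 5 libraries alone (0.669), without control library 2 (0.68, log2 fold change -2.07) and without day 2 library 2 (0.646) or 3 (0.143). Its neighbours are close relatives in sequence with which it may share reads. The nearest abundant one, Serpina11, was at 80.3 and 110 CPM in the controls and at 85.9, 85.4 and 103 CPM at day 2, so that its groups overlapped. Serpina12 had a log2 fold change of -0.34 (SE 0.32). By day 6 Serpina4-ps1 was at 168, 312 and 151 CPM, above every day 2 library.

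**Figure D1:**
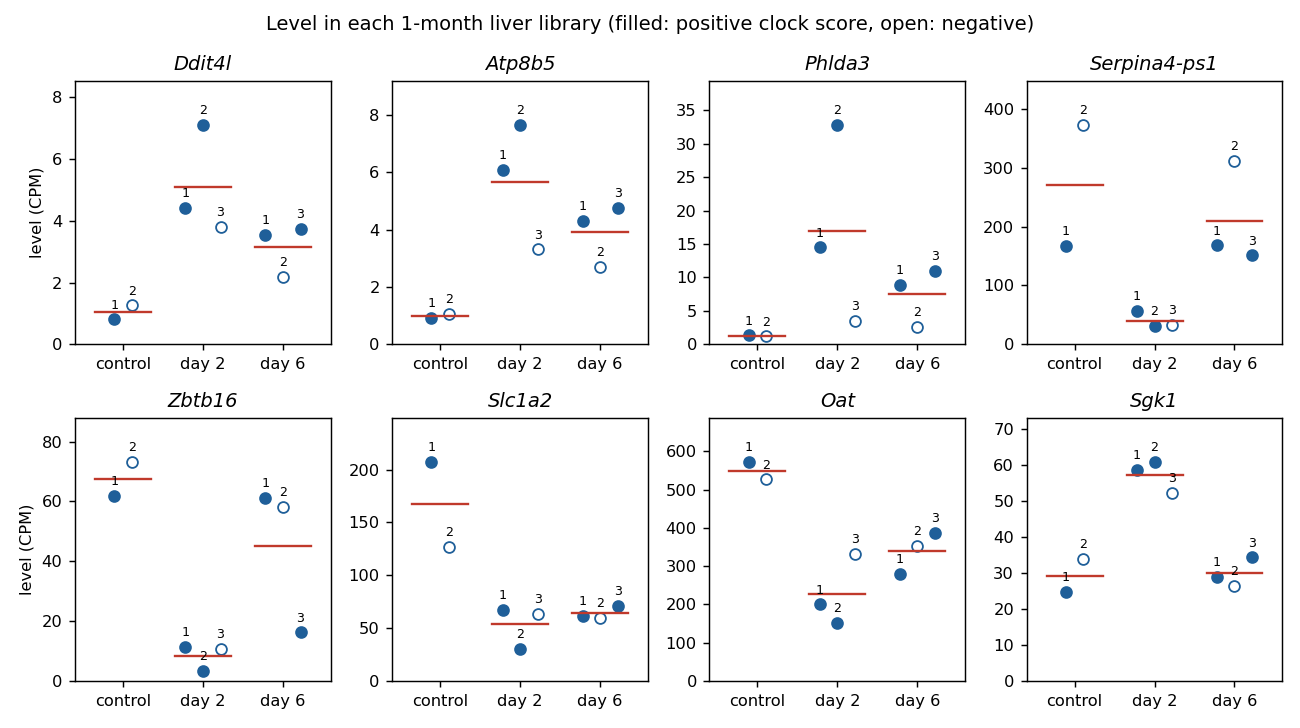
Level in CPM (y axis) of 8 genes in each library of 1-month-old mice, with untreated, day 2 and day 6 libraries on the x axis, numbers giving the library, red lines the group means, and filled or open symbols a positive or negative clock score. Ddit4l, Atp8b5 and Phlda3 lie above both controls at day 2, and Serpina4-ps1, Zbtb16, Slc1a2 and Oat lie below, with Sgk1 above at day 2 (52.1 to 60.9 CPM) and back among the controls at day 6.

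The p53 targets were the list with the most members at an unadjusted p under 0.05, and all of these lay on one side. Of 41 measured members of 43, 20 were higher at an unadjusted p under 0.05 and none was lower, against 3.18% and 3.98% of all genes. The median log2 fold change of the list was 0.65 and 35 members were above 0. Of the 41, 18 had all 3 day 2 libraries above both controls (7.96% of all genes did) and none had all 3 below. DESeq2 called 10 of them higher and none lower. Without control library 2 and day 2 library 3, again 20 of the 41 were higher and none was lower at that unadjusted p, against 1.67% and 1.53% of all genes. The summed level of the list was 1624 and 1694 CPM in the controls and 2313, 2772 and 2057 CPM at day 2.

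Several of these genes feed back on p53 or on growth signals. Phlda3, an inhibitor of AKT signalling, was at 1.3 and 1.16 CPM in the controls and at 14.5, 32.8 and 3.44 CPM at day 2. Day 2 library 2 was high and library 3 low, and all 3 lay above both controls. Its log2 fold change was 3.79 (SE 0.79, DESeq2 adjusted p = 0.000793, edgeR adjusted p = 0.269). Mdm2, the ubiquitin ligase that degrades p53, was at 29.7 and 29.6 CPM in the controls and at 57.5, 57.7 and 37.4 CPM at day 2 (DESeq2 adjusted p = 0.0691). Ccng1, which encodes cyclin G1, a partner in the same feedback, and which was chosen after its values were seen, was at 46.8 and 43.5 CPM in the controls and at 125, 173 and 78.8 CPM at day 2. Its log2 fold change of 1.48 (SE 0.29) was called by DESeq2 (adjusted p = 0.000793). In all 3 genes day 2 library 3 was the lowest of its group. Trp53 itself was at 15.9 and 22.9 CPM in the controls and at 17, 15.2 and 20.7 CPM at day 2, with overlapping groups, a log2 fold change of -0.14 (SE 0.21) and an edgeR adjusted p of 0.904.

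A second set bears on cell death. Eda2r and Tnfrsf10b encode receptors of the tumour necrosis factor receptor superfamily, the latter the mouse TRAIL receptor. Eda2r was at 1.23 and 1.53 CPM in the controls and at 7.82, 10.3 and 2.79 CPM at day 2 (log2 fold change 2.34, SE 0.46, DESeq2 adjusted p = 0.000111). Tnfrsf10b was at 0.997 and 1.16 CPM in the controls and at 4.05, 4.52 and 1.74 CPM at day 2 (DESeq2 adjusted p = 0.0148). They were the only 2 of 24 measured death receptor and extrinsic apoptosis genes that DESeq2 called, both higher, against 0.274% of all genes called higher, and the list had a median log2 fold change of 0.13. Among 24 genes of intrinsic apoptosis DESeq2 called Endog, a mitochondrial nuclease, which was at 11.7 and 10.5 CPM in the controls and at 25.9, 34.3 and 18.8 CPM at day 2. Bax, the effector that permeabilises the mitochondrial membrane, was at 17.7 and 16.4 CPM in the controls and at 25.4, 45.4 and 20 CPM at day 2 (edgeR adjusted p = 0.6). The antiapoptotic Bcl2 stood on the other side, at 2.11 and 1.77 CPM in the controls and at 1.61, 1.09 and 1 CPM at day 2 (edgeR adjusted p = 0.698). Aen, a nuclease induced by p53 that was chosen after its values were seen, was called higher by DESeq2 (log2 fold change 1.19, SE 0.27), as was Ddias, named for a role in suppressing apoptosis after DNA damage, at 1.42 and 2.48 CPM in the controls and 5.11, 7.88 and 4.97 CPM at day 2.

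Cdkn1a, which encodes the cell cycle inhibitor p21 and is the best known p53 target, did not pass. It was at 4.22 CPM in control library 1 and at 56.4 CPM in control library 2, against 47.6, 106 and 81.4 CPM at day 2. Day 2 library 1 thus lay below control library 2, and the 2 controls differed more than the groups did. The log2 fold change was 1.37 (SE 0.68, edgeR adjusted p = 0.72). Between control library 1 and day 2 libraries 1 and 2, which share a clock phase, the log2 difference was 4.05, and between control library 2 and day 2 library 3 it was 0.53. The part of the clock phase in this was not tested.

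Gdf15, a stress hormone of the transforming growth factor beta superfamily, was at 5.68 and 6.12 CPM in the controls and at 31.6, 19.3 and 10.3 CPM at day 2 (log2 fold change 1.79, SE 0.56, DESeq2 adjusted p = 0.0708). Library 1 was the highest for Gdf15, as for 11 of the 41 targets, while library 2 was the highest for 20 and library 3 for 10. The order library 2, then 1, then 3 was seen in 16 of the 41 targets, while 16% of all genes tested had that order. Some other lists also held it often, with 17 of 43 PPARa targets, 17 of 52 NRF2 and conjugation genes and 8 of 19 macrophage markers. It was rare in others, such as the urea cycle and amino acid breakdown, with 1 of 53. The treated pools therefore differed among themselves for this list, though not for it alone, as is visible in the plot of p53 targets by library.

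**Figure D2:**
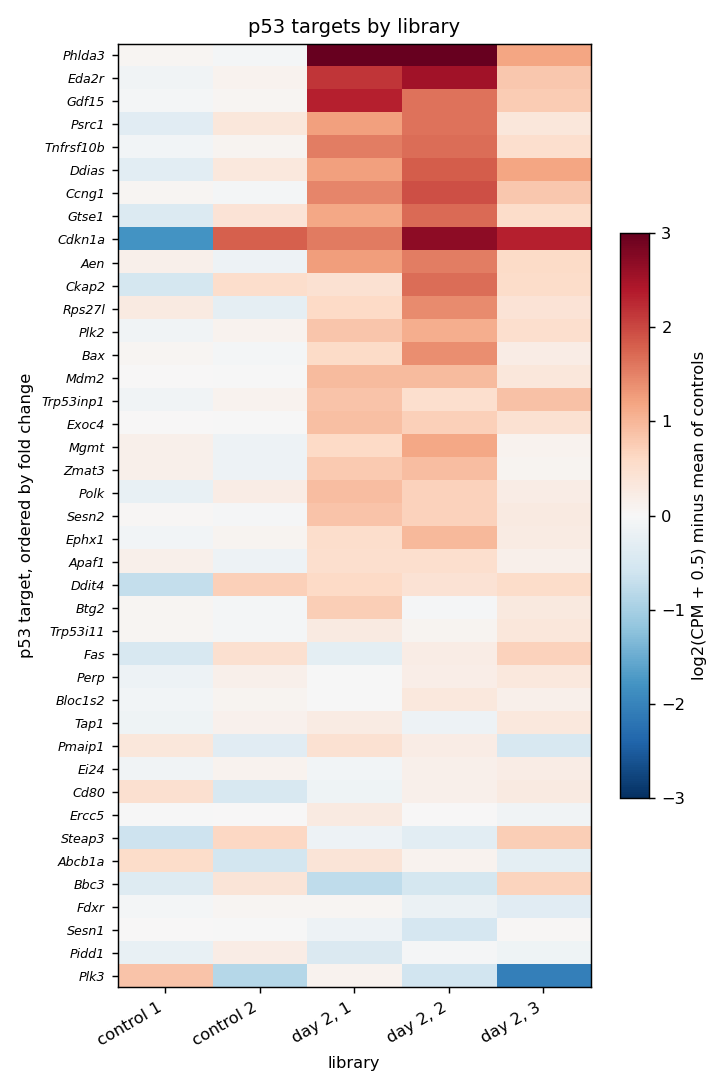
The 41 measured p53 targets (rows, ordered by log2 fold change) in the 5 libraries (columns), coloured by log2(CPM + 0.5) minus the mean of the 2 controls, with colours limited at 3 units. Most upper rows are red in all 3 day 2 libraries, deepest in library 2, and Cdkn1a differs between the controls themselves.

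Promoter sequences were read for the genes that moved together, from the RefSeq windows of build GRCm38.p6, taking the 250 bases before each start. Such windows matched 10981 of the gene symbols tested, 31 of the 43 genes that DESeq2 called higher and 32 of the 48 it called lower. The p53 response element decamer, which a p53 dimer binds and which is its own reverse complement, was searched on both strands without mismatch. It was found in 6 of the 31 higher genes, in 1 of the 32 lower genes and in 7.33% of all genes. In the p53 target list it was found in 11 of 36. These 2 counts share members, since Aen, Ccng1, Exoc4 and Mdm2 were among both the 6 and the 11. The antioxidant response element core TGACNNNGC was found in 8 of 46 genes of the list of NRF2 targets and conjugation enzymes and in 13.9% of all genes, and the AP-1 site TGANTCA, which overlaps it in part, in 9 of 46 and in 5.96%. Among the called genes TGACNNNGC was found in 6 of the 31 higher and 2 of the 32 lower genes. A split between the directions was thus not particular to the decamer. TGANTCA was found in 1 higher and 1 lower gene. The windows of 4 genes called higher are shown because they hold the decamer, which is in capitals, and each is written 5′ to 3′ on the strand of its gene. They lie at chr3:137623422-137623671 (plus strand, Ddit4l), chr11:40755287-40755536 (minus strand, Ccng1), chr10:117710759-117711008 (minus strand, Mdm2) and chr7:78895808-78896057 (plus strand, Aen).
Ddit4l: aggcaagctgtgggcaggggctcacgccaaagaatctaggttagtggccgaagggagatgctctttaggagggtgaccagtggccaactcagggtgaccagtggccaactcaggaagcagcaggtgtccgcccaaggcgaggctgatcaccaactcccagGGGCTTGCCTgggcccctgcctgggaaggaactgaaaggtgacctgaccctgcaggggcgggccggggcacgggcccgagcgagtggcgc
Ccng1: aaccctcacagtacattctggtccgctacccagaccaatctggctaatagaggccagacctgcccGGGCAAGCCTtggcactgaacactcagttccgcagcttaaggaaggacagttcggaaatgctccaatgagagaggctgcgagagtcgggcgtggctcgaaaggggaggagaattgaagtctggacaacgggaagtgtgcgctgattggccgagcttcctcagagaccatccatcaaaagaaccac
Mdm2: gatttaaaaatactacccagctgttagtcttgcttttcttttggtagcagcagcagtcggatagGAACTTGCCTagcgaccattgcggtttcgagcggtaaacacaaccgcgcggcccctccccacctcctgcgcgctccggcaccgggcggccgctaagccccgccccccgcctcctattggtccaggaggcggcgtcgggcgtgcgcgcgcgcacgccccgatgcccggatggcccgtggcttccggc
Aen: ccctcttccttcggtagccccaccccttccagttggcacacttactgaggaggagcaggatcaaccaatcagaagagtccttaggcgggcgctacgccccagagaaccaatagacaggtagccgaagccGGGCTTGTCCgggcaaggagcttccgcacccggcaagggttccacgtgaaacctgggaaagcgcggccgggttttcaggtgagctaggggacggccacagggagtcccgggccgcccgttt
The decamer starts 90 bases before the RefSeq start of Ddit4l, 185 before that of Ccng1, 186 before that of Mdm2 and 121 before that of Aen. The starts of Ddit4l and Aen in the gene table of the study lie further upstream than the RefSeq starts used here, so that their decamers lie inside the gene by that table. A match in these letters is a description and not a bound site, and the windows of Phlda3 and Atp8b5, which held none, say nothing about the rest of those genes.

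Genes of glutathione conjugation and of the NRF2 response, which detoxify electrophiles, leaned to higher levels. All 52 listed genes were measured, 13 were higher at an unadjusted p under 0.05 and none was lower, against 3.18% and 3.98% of all genes. The median log2 fold change was 0.26 and 40 members were above 0, but none passed with edgeR or DESeq2. Without control library 2 and day 2 library 3 the count was 9 higher and none lower, against 1.67% and 1.53% of all genes. Gsta4, a glutathione transferase for lipid aldehydes, was at 37.4 and 35.9 CPM in the controls and at 48.4, 112 and 56.8 CPM at day 2 (log2 fold change 0.98, SE 0.30, edgeR adjusted p = 0.583). Gsta2 was at 7.06 and 6.36 CPM in the controls and at 11.5, 29.5 and 10.4 CPM at day 2. For both genes the groups did not overlap, and day 2 library 2 was well above the other day 2 libraries. Ephx1, the microsomal epoxide hydrolase, was at 460 and 517 CPM in the controls and at 701, 957 and 583 CPM at day 2. It is also a member of the p53 list. Nqo1, a quinone reductase chosen after its values were seen, was at 9.59 and 7.65 CPM in the controls and at 10.9, 22.4 and 10.4 CPM at day 2. Some alpha class transferases are near copies of each other, so reads may be split between those.

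The genes that act on alkylated bases themselves were near their control levels. Of 42 genes of alkylation, base and nucleotide excision repair, 1 was higher at an unadjusted p under 0.05 and none was lower, with a median log2 fold change of 0.08. That gene was Mgmt, the methyltransferase that takes alkyl groups off guanine, at 13.6 and 11 CPM in the controls and at 18.9, 27.9 and 13.2 CPM at day 2. Day 2 library 3 lay below control library 1, so the groups overlapped (log2 fold change 0.70, SE 0.30, edgeR adjusted p = 0.695). Mpg, the alkyladenine glycosylase, was at 8.17 and 10.6 CPM in the controls and at 9.29, 9.41 and 11 CPM at day 2. Of 45 genes of double-strand break repair and the checkpoint, 1 was higher and 1 lower at that p, namely Xrcc5, which encodes the Ku80 subunit, with a log2 fold change of 0.31, and Rad52 with -0.50.

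Proliferation genes gave a mixed picture. Among 37 genes of DNA replication and S phase, 3 were higher and 1 lower at an unadjusted p under 0.05, and 30 were above 0 with a median log2 fold change of 0.24. Cdc6, the loader of the MCM helicase, was at 0.345 and 0.34 CPM in the controls and at 0.552, 3.03 and 0.915 CPM at day 2. E2f8, a repressor of cell cycle genes that drives polyploidy in the liver, was called lower by DESeq2. It was at 8.4 and 19.2 CPM in the controls and at 2.9, 5.76 and 5.62 CPM at day 2, without overlap (log2 fold change -1.53, SE 0.42, DESeq2 adjusted p = 0.084). Of 36 genes of G2 and mitosis none reached an unadjusted p under 0.05 in either direction with edgeR, and DESeq2 called none. Their summed level was 113 and 193 CPM in the controls and 95.6, 225 and 146 CPM at day 2, so that day 2 library 2 was highest and day 2 library 1 lowest of the 5. Mki67, the proliferation marker, was at 11.6 and 17.2 CPM in the controls and at 8.51, 15.5 and 12.4 CPM at day 2.

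A small group of genes of the hepatocytes around the central vein stood lower. Of 37 listed genes of that layer 17 had a log2 fold change above 0. In that layer Glul makes glutamine from ammonia, Slc1a2 takes up glutamate, Oat passes ornithine carbons to glutamate, and Rhbg moves ammonium. Slc1a2 was at 208 and 127 CPM in the controls and at 67.3, 30.3 and 63.6 CPM at day 2 (log2 fold change -1.64, SE 0.31, DESeq2 adjusted p = 0.000793, edgeR adjusted p = 0.25). Oat was at 573 and 526 CPM in the controls and at 200, 151 and 331 CPM at day 2 (log2 fold change -1.28, SE 0.28, DESeq2 adjusted p = 0.0106). Glul was at 798 and 680 CPM in the controls and at 375, 309 and 542 CPM at day 2 (log2 fold change -0.85, SE 0.22, DESeq2 adjusted p = 0.0611). In all 3 genes the groups did not overlap and day 2 library 2 was the lowest. Rhbg and Slc22a3, a transporter of organic cations, both chosen after their values were seen, had log2 fold changes of -1.17 (SE 0.34) and -1.01 (SE 0.30), and neither was called by either tool.

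The pericentral list held members on both sides. Of 37 members, 5 were lower and 2 higher at an unadjusted p under 0.05, against 3.98% and 3.18% of all genes, and the median log2 fold change was -0.03. Without control library 2 and day 2 library 3 the counts were 6 lower and 1 higher, against 1.53% and 1.67% of all genes. Cyp2e1, the enzyme that activates DEN, was at 7473 and 6400 CPM in the controls and at 6178, 5079 and 5025 CPM at day 2 (log2 fold change -0.35, SE 0.32, edgeR adjusted p = 0.816). All 3 day 2 libraries lay below both controls, yet the gap was small beside the spread. The transcription marks of Wnt signalling in this layer, Axin2 and Lgr5, also chosen after their values were seen, had log2 fold changes of -0.03 (SE 0.38) and -0.46 (SE 0.31). Of 35 periportal genes none reached an unadjusted p under 0.05 with edgeR, and the median was -0.01. Cps1, the first enzyme of the urea cycle, overlapped between the groups. Of 53 genes of the urea cycle and amino acid breakdown DESeq2 called 2, the same Oat and Glul.

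**Figure D3:**
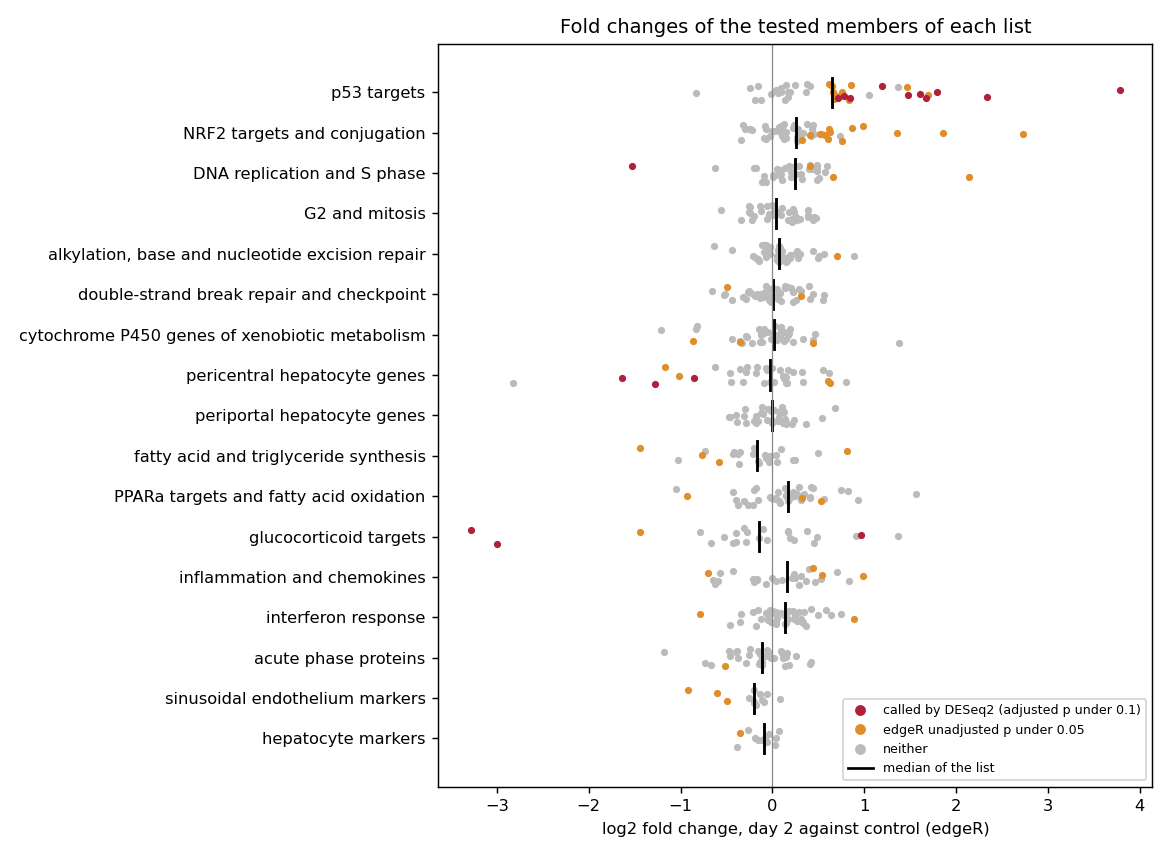
Log2 fold change at day 2 against control (x axis) of each measured member of 17 gene lists (rows), with a black line at the median of the list and colours for the DESeq2 call, an unadjusted edgeR p under 0.05, or neither. The p53 targets have their median at 0.65 and the NRF2 and conjugation genes at 0.26, while the pericentral list holds 3 called genes on the left and a median of -0.03.

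Targets of the glucocorticoid receptor, through which the adrenal hormone acts on the liver, moved in both directions. Zbtb16, a zinc finger repressor strongly induced by glucocorticoids, was at 61.9 and 73.3 CPM in the controls and at 11.3, 3.35 and 10.8 CPM at day 2. The highest day 2 library was far below the lowest control (log2 fold change -3.0, SE 0.66, DESeq2 adjusted p = 0.0242, edgeR adjusted p = 0.315). Untreated 6-month libraries 1 and 2 were themselves far apart for Zbtb16, at 37 and 6.06 CPM. Fam107a, another such target, was at 5.29 and 1.6 CPM in the controls and at 0.138, 0.255 and 0.654 CPM at day 2 (log2 fold change -3.29, SE 0.90, DESeq2 adjusted p = 0.0642). Sgk1, a kinase under glucocorticoid and insulin control, stood on the other side, at 24.6 and 33.8 CPM in the controls and at 58.6, 60.9 and 52.1 CPM at day 2 (log2 fold change 0.97, SE 0.20, DESeq2 adjusted p = 0.00467). Fkbp5, a cochaperone of the receptor chosen after its values were seen, was at 149 and 95.9 CPM in the controls and at 78.4, 77.1 and 58.1 CPM at day 2 and was not called. Of the 25 genes of the list 8 had all 3 day 2 libraries below both controls and 1 had all 3 above, against 8.77% and 7.96% of all genes. The median log2 fold change was -0.15.

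At day 6, against the same controls, Zbtb16 was at 61.3, 58.2 and 16.2 CPM, so that 2 of the 3 libraries were near the controls, and Sgk1 was at 28.8, 26.3 and 34.3 CPM. In contrast Slc1a2 was at 61.8, 59.5 and 70.7 CPM at day 6, still below both controls.

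Genes of fasting and of lipid metabolism lay on both sides. Ppargc1a, the coactivator that drives gluconeogenesis and oxidation in fasting, was at 42.8 and 31.9 CPM in the controls and at 15.3, 6.6 and 26.7 CPM at day 2. Sik1, a kinase that restrains that programme, was at 13.3 and 16 CPM in the controls and at 59.9, 59 and 20.2 CPM at day 2. Neither passed (edgeR adjusted p = 0.618 and 0.627). G0s2, an inhibitor of the lipase that opens lipid droplets, was called lower by DESeq2, at 57.2 and 56.5 CPM in the controls and 21.9, 29.2 and 18.8 CPM at day 2. Of 26 genes of insulin and fasting 3 were higher and 2 lower at an unadjusted p under 0.05. Of 26 genes of fatty acid and triglyceride synthesis 1 was higher, Srebf1, and 3 were lower, among them the phosphatidate phosphatases Lpin1 and Lpin2, with a median log2 fold change of -0.17. Of 43 PPARa targets 2 were higher and 1 lower with a median of 0.17, and 30 were above 0. In 10 of the 43 all 3 day 2 libraries lay above both controls and in 2 below, against 7.96% and 8.77% of all genes. Of 25 genes of cholesterol synthesis none reached that p with edgeR and none was called by DESeq2. Of 29 bile acid genes 1 was higher and 1 lower.

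Foxa1 and Foxa2, pioneer factors that open liver enhancers and were chosen after their values were seen, were both called lower by DESeq2 (adjusted p = 0.0521 and 0.088). Foxa1 was at 25.4 and 23.1 CPM in the controls and at 14.6, 14.1 and 14.8 CPM at day 2. Foxa2 was at 30.2 and 31.1 CPM in the controls and at 14.7, 14.8 and 17.5 CPM at day 2. The replicates of both genes lay close together, and the log2 fold changes were -0.74 (SE 0.17) and -0.97 (SE 0.25). Hnf4a, a central regulator of hepatocyte genes, was at 803 and 736 CPM in the controls and at 645, 532 and 636 CPM at day 2 and was not called (log2 fold change -0.35, SE 0.15, edgeR adjusted p = 0.695). It was the 1 hepatocyte marker of 12 with an unadjusted p under 0.05. Nr2f6, an orphan nuclear receptor also chosen after its values were seen, was called higher, at 48 and 62 CPM in the controls and 86.2, 114 and 100 CPM at day 2.

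Few drug-metabolising and sex-biased genes reached an unadjusted p under 0.05. Of 42 cytochrome P450 genes of xenobiotic metabolism 1 was higher and 2 lower at an unadjusted p under 0.05, with a median log2 fold change of 0.02 and no call by either tool. Cyp2a5 differed between the clock phases and not between the groups, at 1184 and 214 CPM in the controls and 1225, 1172 and 246 CPM at day 2. Of 33 male-biased genes 3 were lower (9.09%), Cyp4a12a, Cyp4a12b and Cyp7b1, all with overlapping groups, and the 2 Cyp4a12 genes are near copies. Of 30 female-biased genes 2 were lower (6.67%). In neither list was a gene higher at that p, and of all genes 3.98% were lower and 3.18% higher. In 4 of the 30 female-biased genes all 3 day 2 libraries lay below both controls, against 8.77% of all genes. Of 22 fetal and juvenile genes 1 was higher. Afp, the fetal serum protein, was at 2.15 and 2.58 CPM in the controls and at 2.48, 1.97 and 3.96 CPM at day 2.

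Inflammatory genes showed small differences at this time. Of 28 genes of inflammation and chemokines, 3 were higher and 1 lower at an unadjusted p under 0.05, and the median log2 fold change was 0.16. In 7 of the 28 all 3 day 2 libraries lay above both controls and in 1 below, against 7.96% and 8.77% of all genes. Il1b was at 0.92 and 1.09 CPM in the controls and at 2.12, 2.15 and 1.7 CPM at day 2 (edgeR adjusted p = 0.624). Of 43 interferon genes 1 was higher, the nucleic acid sensor Zbp1, and 1 lower, Oas2. In 8 of the 43 all 3 day 2 libraries lay above both controls and in 2 below. Of 36 acute phase proteins 1 was lower and none higher, with a median of -0.11. The summed level of the acute phase list was 50380 and 77640 CPM in the controls and 52580, 50340 and 78940 CPM at day 2, so that the 2 libraries of negative clock score were highest in both groups. The list of the integrated stress response and unfolded proteins went the same way, with 4979 and 9019 CPM in the controls and 4890, 5855 and 10810 CPM at day 2, and 2 of its 35 genes, Gdf15 and Sesn2, were higher at that p. Fos and Jund, subunits of the AP-1 factor, were both called higher by DESeq2. Fos was at 1.04 and 0.612 CPM in the controls and at 3.5, 1.6 and 3.79 CPM at day 2. Jund, chosen after its values were seen, was at 21.1 and 17.7 CPM in the controls and at 38.2, 44.6 and 35.8 CPM at day 2.

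Markers of other liver cells were looked at for shifts in makeup. Of 14 genes listed as endothelial markers, not all of them particular to the sinusoids, 3 were lower at an unadjusted p under 0.05, against 3.98% of all genes. Of the 14, 13 had a log2 fold change below 0, and the median of the list was -0.20. Without control library 2 and day 2 library 3 the count was 1 lower, against 1.53% of all genes, with a median of -0.34. The 3 that were lower with all libraries were Vwf, the carrier of clotting factor VIII, and the scavenger receptor genes Stab2 and Stab1. Vwf was at 5.83 and 8.33 CPM in the controls and at 3.68, 2.84 and 4.71 CPM at day 2 (log2 fold change -0.92, SE 0.25, edgeR adjusted p = 0.424). Stab2 was at 85.9 and 76.8 CPM in the controls and at 67.6, 45.4 and 47.9 CPM at day 2. The summed level of the list overlapped between the groups, at 707 and 570 CPM in the controls and 589, 564 and 502 CPM at day 2. Of 19 macrophage and Kupffer cell markers, 16 of stellate cells and fibroblasts, 11 of cholangiocytes, 16 of lymphocytes, 9 of erythroid cells, 2 of exocrine pancreas and 3 of adipocytes, none reached an unadjusted p under 0.05 with edgeR or was called by DESeq2. Of 7 neutrophil markers 1 was lower, Ngp, at 0.652 and 1.19 CPM in the controls and at most 0.401 CPM at day 2. Erythroid markers had a median log2 fold change of -0.57, with summed levels of 496 and 749 CPM in the controls and 410, 471 and 633 CPM at day 2. The 12 clock genes that peak with Dbp and the 6 that peak with Arntl were not called by either tool, and none reached an unadjusted p under 0.05 with edgeR.

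The gene classes, spans and levels of the genes called by DESeq2 are given for each direction, and their difference was not tested. Of the 43 higher genes 39 were protein-coding and 10 were p53 targets, with a median genomic span of 7.26 kb and a median control level of 5.9 CPM. Of the 48 lower genes 37 were protein-coding, 5 were of the class TEC, transcripts whose structure awaits experiment, and none was a p53 target, with a median span of 23.4 kb and a median control level of 36.7 CPM. Over all genes tested 87.1% were protein-coding, 2.54% were TEC, and the medians were 20 kb and 10.9 CPM. The lower genes include the very long Fhit, at 2.8 and 2.45 CPM in the controls and 0.828, 1.24 and 1.13 CPM at day 2, and Wwox, which was chosen after its values were seen. Both are known for the fragile sites they span. A long gene was also called higher by DESeq2, Exoc4 on chromosome 6 at 33249085 to 33973979 (log2 fold change 0.71, SE 0.13). The TEC transcript with the highest level, Gm43305 on chromosome 14, chosen after its values were seen, was at 1255 and 2545 CPM in the controls and at 857, 356 and 662 CPM at day 2.

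Some called genes overlap others, and no source used here says whether the counting used strand. Jund contains the gene model Gm11175 on the other strand, and both were called higher, with log2 fold changes of 1.03 and 0.84. Gm38070 lies inside Il1r1, the receptor gene for interleukin 1, on the same strand, and both were called lower, with log2 fold changes of -1.79 and -1.19. Each of these pairs, which were chosen after their values were seen, may be 1 signal. Rnaset2b, an acid ribonuclease gene at 0.92 and 0.816 CPM in the controls and 3.91, 5.14 and 2.7 CPM at day 2, has a near-identical copy, and its level is uncertain for that reason. Scand1, called higher at 7.73, 13.6 and 6.41 CPM against 2.07 and 1.43 CPM in the controls, overlaps Cnbd2 on the other strand, which had a log2 fold change of -0.20.

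Within each clock phase the size of a difference could be compared without mixing phases, although the direction is fixed by the choice of genes that do not overlap. For Serpina4-ps1 the log2 difference was -2.01 in the libraries of positive score and -3.50 in those of negative score. For Zbtb16 it was -3.31 and -2.76. For Atp8b5 it was 2.79 and 1.59, for Ddit4l 2.69 and 1.54, and for Phlda3 3.99 and 1.52. Of the 41 measured p53 targets, 34 (82.9%) had a higher log2 difference in the libraries of positive score than in those of negative score, against 50.2% of all genes. Pool and phase cannot be told apart in this, since 1 treated library, day 2 library 3, represents the negative score. Scand1 (2.27 and 2.11) and Tmem238 (1.59 and 1.36) differed less between the phases.

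**Figure D4:**
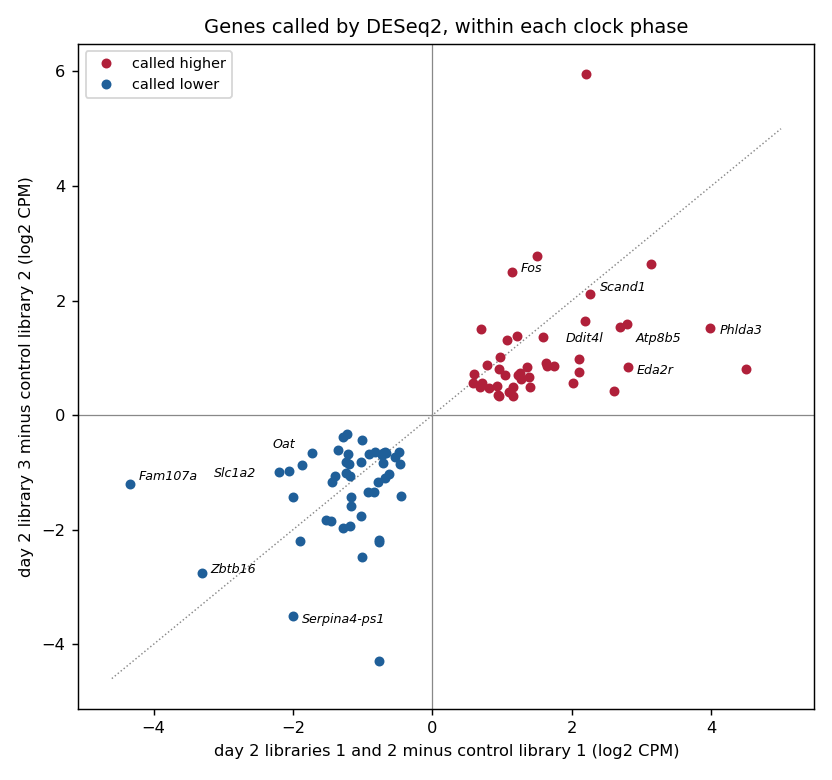
Log2 CPM difference between day 2 and control for the 91 genes called by DESeq2, in the libraries of positive clock score (x axis, day 2 libraries 1 and 2 against control library 1) and of negative score (y axis, day 2 library 3 against control library 2), with a dotted line of equal differences. Phlda3 (3.99 and 1.52) lies below the line and Serpina4-ps1 (-2.01 and -3.50) lies below it on the other side.

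The same contrast in 6-month-old mice, with their own controls, was fitted in the same model. Its libraries thus entered the low-count filter, the scaling and the shared spread behind the 1-month calls. Over all genes tested 48.7% had the same sign of the log2 fold change at both ages, and 48 of 15684 had the same sign and passed at 6 months. Of the 43 genes called higher at 1 month, 35 had a positive log2 fold change at 6 months, with a median of 0.83, and 17 passed there with edgeR. Of the 48 called lower, 34 had a negative one, with a median of -0.12, and 4 passed. Among the higher genes the p53 targets had larger values at 6 months than at 1 month in 9 of 10 cases, such as Eda2r (3.47 against 2.34) and Ddias (2.76 against 1.61), and so did Ddit4l (3.28 against 2.30) and Atp8b5 (3.70 against 2.52). For Phlda3, 1 of the 9, the values were close, at 4.12 against 3.79 (SE of the difference 1.04). Over all 43 higher genes the median was 0.83 at 6 months and 1.19 at 1 month. Pericentral Oat (-1.89 against -1.28) and Glul (-1.42 against -0.85) were lower at both ages and passed at 6 months. The same held for Fhit (-2.29 against -1.29) and Wwox (-0.88 against -0.66). Genes with values near 0 at 6 months were Serpina4-ps1 (-0.0023 against -2.76), Scand1 (0.02 against 2.41), Tmem238 (-0.21 against 1.52), Rnaset2b (0.28 against 2.17) and Arid5b (0.34 against -1.45), a chromatin factor of lipid metabolism. In untreated livers their mean levels also stood apart between the ages. For Serpina4-ps1 the mean was 270 CPM in 1-month controls, 40 CPM at 1-month day 2 and 42 CPM in 6-month controls. In that order the means were 1.75, 9.2 and 6.62 CPM for Scand1 and 4.04, 11.6 and 7.47 CPM for Tmem238. They were 0.868, 3.92 and 2.1 CPM for Rnaset2b, and 81.9, 29.9 and 32.6 CPM for Arid5b. Untreated levels were not tested between the ages. The difference between the ages in the day 2 response was tested for every gene, and 1 gene (0.00638%), Aatk, passed with edgeR. For Serpina4-ps1 that difference had an unadjusted edgeR p of 0.000534 and for Foxa1 of 0.000713. For Gria3, a glutamate receptor gene chosen after its values were seen, it had an unadjusted edgeR p of 8.49e-05. DESeq2 called Gria3 higher at 1 month, and it passed at 6 months. None of these 3 differences passed after adjustment.

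**Figure D5:**
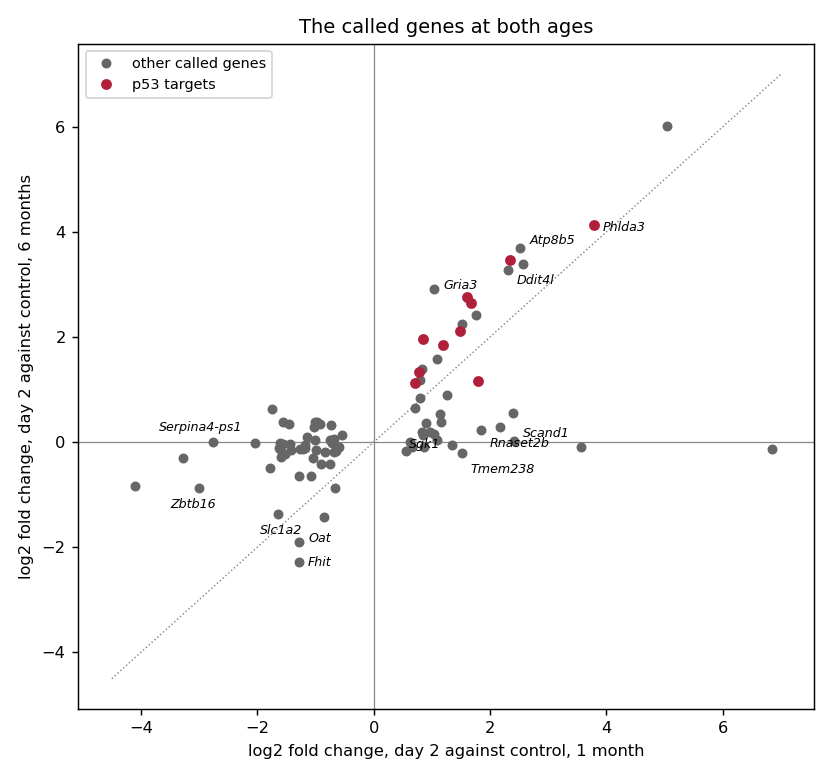
Log2 fold change at day 2 against control in 1-month-old mice (x axis) and in 6-month-old mice (y axis) for the 91 genes called by DESeq2 at 1 month, with p53 targets in red and a dotted line of equal values. Of the 10 p53 targets 9 lie above the line and Gdf15 lies below it, while most genes called lower at 1 month lie near 0 at 6 months (median -0.12).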

How the data were processed

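Liver RNA was pooled from 3 mice per library, made into TruSeq libraries and sequenced on a NextSeq by the authors, who aligned them to GRCm38 with TopHat2 2.0.13 and the annotation of Ensembl release 84. The submitters' processing notes also name cutadapt, Cufflinks 2.2.1, Cuffnorm and DESeq2 1.10.1. The table the authors deposited lists 47729 genes with an unnormalized whole-number count for each library, and 10 genes without counts were left out. The counting program, and whether it used strand, are stated in no source used here. Their 16 columns of normalized counts and the columns of their own comparisons, which hold fold changes and p-values, were not used. Totals were 21592732 to 31785053 counts in the 5 libraries compared.

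Samples were grouped by the labels of age and day. After TMM scaling, 15684 genes passed filterByExpr over the 6 groups and entered edgeR's quasi-likelihood test (edgeR 4.0.16 and limma 3.58.1 under R 4.3.3). All 16 libraries entered 1 model, since the 2 control libraries alone give little information on the spread. P-values were adjusted by Benjamini-Hochberg over all genes with a threshold of 0.1, which is that of the authors. Fitted fold changes carry a prior count of 0.125, log2 CPM has a prior count of 2, and SE is the fold change divided by the square root of the F statistic. DESeq2 1.42.0 was run on the same genes and groups as an alternative, and gave no adjusted p for 1526 genes. The other alternatives were another scaling, no filter, robust dispersion, a replicate block, the clock score as a covariate, fewer libraries, and leaving out each library in turn. The fit was tested on simulated data.

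Same-numbered libraries do not come from the same animals. Their deviations from group means correlated with r from -0.302 to 0.588, so the numbers were not taken to pair the libraries. Control library 2 and day 2 library 3, which carry different numbers, correlated at 0.537.

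The members and the gene lists were chosen with earlier results of these data known, so the lists carry counts and medians and no test of their own. The genes named are those that passed with edgeR, the 12 most above and 12 most below controls among official symbols that DESeq2 called without overlap of the groups and with at least 1 CPM, up to 3 members per list with the smallest unadjusted p under 0.05, and a few anchor genes of the pathway. Genes outside this rule are said to have been chosen after their values were seen. Promoter windows are from RefSeq on GRCm38.p6.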

Additional observations from a re-analysis of the deposited data

Results flagged for a closer look

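Aatk, which encodes an apoptosis-associated tyrosine kinase, was picked out because its day 2 response differed between the ages by a test of the difference itself. In 1-month-old mice it was at 1.92 and 1.6 CPM in the controls and at 2.71, 1.75 and 1.74 CPM at day 2, with overlapping groups. In 6-month-old mice its mean level was 13.6 CPM in the controls and 2.81 CPM at day 2. The log2 difference between the responses was 2.51 (edgeR adjusted p = 0.0232). With edgeR 0 genes passed in this difference with the replicate block, without 1-month control library 2 and day 2 library 3 together, or without 1-month control library 2, 6-month control library 2 or 6-month day 2 library 1 or 3. The difference rests on the 6-month libraries, since the 1-month log2 fold change was 0.23 (SE 0.23).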

How the results depend on the processing

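With 2 control and 3 treated pools the calls rested on the shared spread. The 3 genes that passed were also called with other size factors (3 genes, with 522 higher and 593 lower genes at an unadjusted p under 0.05 in place of 499 and 624), without a filter on low counts (131 genes) and by DESeq2 (91). With the clock score as a covariate 10 genes passed. With the replicate block 0 genes passed with edgeR, although 877 had an unadjusted p under 0.05, and 0 passed in the difference between the ages, so the blocked fit made no call. With the 5 libraries alone, or the 8 of 1-month-old mice, 0 genes passed with edgeR, and 419 and 553 had an unadjusted p under 0.05. Without control library 2 and day 2 library 3, an alternative chosen after seeing the data, 4 genes passed, 2 of them among the 3, 515 had an unadjusted p under 0.05, and 0 passed in the difference between the ages. Leaving out 1 library at a time gave 0 to 53 passing genes and 525 to 2356 at an unadjusted p under 0.05. The extremes were day 2 library 2 (0 and 525) and day 2 library 1 (53 and 2356), and 1 gene passed without either control library and 11 without day 2 library 3. Without control library 2, 674 genes had an unadjusted p under 0.05. Serpina4-ps1 did not pass with robust dispersion (adjusted p = 0.137), without control library 2 (0.68), day 2 library 2 (0.646) or day 2 library 3 (0.143), without both libraries of negative clock score (0.712), or without 1 of 5 libraries outside the comparison (0.121 to 0.171: 1-month day 6 library 1, 6-month control library 1 or 2, 6-month day 2 library 2, 6-month day 6 library 2), while its log2 fold change stayed between -3.22 and -1.94. Ddit4l and Atp8b5 did not pass without either control library or day 2 library 2 (adjusted p from 0.122 to 0.285). Of 2000 values of the 80 named genes under the alternatives, 1899 kept their side of the threshold, 25 lost it, 76 gained it and 0 reversed. Only the 3 genes that passed could lose a call, and all 25 losses fell on them. For the other named genes, keeping their side means staying uncalled. Apart from these counts, the sign of an uncalled fold change turned in 11 values of 6 genes (Afp, Cyp2a5, Mki67, Mpg, Saa1 and Trp53). The age difference called 23 genes without a filter, 9 with DESeq2, 2 with the clock covariate and 0 to 11 with 1 library left out: 0 without 1-month control library 2, 6-month control library 2 or 6-month day 2 library 1 or 3, 11 without 6-month control library 1, and 2 without 1-month control library 1 or day 2 library 1. The cause of these changes was not tested.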

Other observations

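Mbl2, a lectin of the complement system made by the liver, was called higher by DESeq2 (adjusted p = 0.00186), at 494 and 492 CPM in the controls and 980, 1349 and 800 CPM at day 2. Ces2e, a carboxylesterase, was also called higher, with a log2 fold change of 0.83 (SE 0.20). Both had log2 fold changes of the same sign at 6 months, 1.58 and 1.39, where both passed with edgeR. Plk2, a kinase of the p53 list, had log2 fold changes of 0.85 at 1 month and 1.96 at 6 months. These genes were chosen after their values were seen.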
